A study of Homo sapiens with 12 samples.

Results

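The genes described here are 36 genes of the endoplasmic reticulum (ER). They encode its chaperones, its disulfide-forming enzymes, its degradation and translocation machinery, and the sensors and transcription factors of the unfolded protein response (UPR). They were taken as the rows of the deposited raw count table whose gene name is on a list of 36 names, out of 63241 rows, and all 36 were among the 19631 genes with enough counts to be tested. RNA came from 12 cultures of ONS76 and DAOY, established human cell lines grown from medulloblastoma, a childhood tumour of the cerebellum. Both lines are labelled wild type, and every culture sat in a 6-well plate under artificial cerebrospinal fluid for the 18 h before RNA was taken. In each line 3 cultures stood still (static) and 3 were gyrated at 100 rpm on an orbital shaker, which drives fluid over the cells and is called fluid shear stress (FSS). Static plates did not move, so whatever else shaking does to a culture cannot be told apart from shear.

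Secreted and membrane proteins are folded in the ER with the help of chaperones, of enzymes that form disulfide bonds and of enzymes that trim sugar chains, and proteins that fail to fold are sent back to the cytosol for degradation. When unfolded proteins build up, the UPR sensors IRE1, PERK and ATF6 slow protein synthesis and induce folding and degradation genes. IRE1 splices the XBP1 transcript into one that encodes an active transcription factor, while ATF6 is itself cut to release one. Counts per gene show neither the splicing nor the cutting, nor how active a sensor is.

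Library totals ran from 38090231 to 49282743 counts. The 3 libraries of a group are described as biological replicates with no word on how separate the cultures were, and p-values therefore cover only the variation among the libraries at hand, which may be technical. Of 12 markers of medulloblastoma and the granule cell lineage, 3 reached a mean of 1 CPM (the counts-per-million value, for markers by library totals alone and for all other genes by TMM-scaled totals) in ONS76, where ATOH1, OTX2 and NEUROD1 were at 0 in all libraries. In DAOY 9 reached it under FSS and 8 when static, and NEUROD1 was at 0. Static ONS76 libraries 1 and 2 stood apart by transcripts of the heart muscle genes MYH6 (30.9 and 12.7 CPM) and MYH7 (19.1 and 6.76 CPM), while the other heart markers TNNT2 and ACTC1 were at 0 everywhere. Summed CPM of 4 endothelial markers moved with FSS, from 27.7 to 28.4 in static ONS76 against 39.4 to 43.4 under FSS, and from 6.02 to 8.82 against 13.8 to 17.5 in DAOY. Summed CPM of 4 leukocyte markers ranged from 1.71 to 2.33 in static DAOY and from 3.58 to 5.00 under FSS. Sums of 4 epithelial markers in ONS76 went from 5.39 to 7.39 when static to 2.47 to 3.24 under FSS, and those of 4 glial markers in DAOY from 1.88 to 2.49 to 2.92 to 3.22. The medulloblastoma and granule cell sums were 37.7 to 41.4 and 46.1 to 48.3 in ONS76, and 210.0 to 217 and 254 to 277 in DAOY. Some of these sums rested on few markers. The endothelial rise lay in PECAM1 and CDH5, while VWF in ONS76 went from 1.99 to 2.69 CPM when static to 1.45 to 1.83 under FSS. CD14 made up most of the leukocyte sums in DAOY. The epithelial fall in ONS76 lay in KRT14, while KRT5 overlapped between groups. PAX6 fell in DAOY, from 23.6 to 26.0 CPM when static to 17.7 to 19.6 under FSS. The part of these transcripts in the results below was not tested, and in bulk RNA fewer cells of a type and less RNA per cell cannot be told apart.

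The ER stress response element (ERSE) is the promoter sequence bound by ATF6 and its partner NF-Y, and the stretches below show where members of the list hold it. Windows of 300 bases, from 250 before to 50 after each start site, were read from RefSeq on GRCh38.p14, where 33 of the 36 members have at least 1 window. SEC24D, PDIA3 and DERL1 have none there. The motif was searched on both strands as CCAAT, then 9 bases of any kind, then CCACG. It was found in 8 of 33 members (24.2%), against 25 of 27305 genes (0.0916%) and 27 of 35116 windows (0.0769%) in the whole table. These 8 stretches are shown because they are all the members found with this form. The capitals mark both ends of the motif as read on the gene's strand. Among chaperone genes whose FSS response differed between the lines, HSPA5, HSP90B1, CANX and CRELD2 hold it. HYOU1, SDF2L1, DNAJC3 and DNAJB9, whose response also differed, do not.

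HSPA5 (chr9:125241381-125241419, minus strand): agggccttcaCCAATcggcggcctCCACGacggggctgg
XBP1 (chr22:28800593-28800631, minus strand): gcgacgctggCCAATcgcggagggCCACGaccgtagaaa
HSP90B1 (chr12:103930206-103930349, plus strand): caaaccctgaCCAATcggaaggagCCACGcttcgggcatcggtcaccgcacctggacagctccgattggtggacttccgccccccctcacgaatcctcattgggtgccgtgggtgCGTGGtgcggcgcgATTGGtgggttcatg
PDIA6 (chr2:10812843-10812881, minus strand): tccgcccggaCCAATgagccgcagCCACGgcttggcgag
CALR (chr19:12938374-12938412, plus strand): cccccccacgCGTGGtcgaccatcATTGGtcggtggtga
CANX (chr5:179698768-179698806, plus strand): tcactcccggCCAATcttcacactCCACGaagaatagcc
CRELD2 (chr22:49918544-49918582, plus strand): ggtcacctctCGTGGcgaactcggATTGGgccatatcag
ERO1B (chr1:236282173-236282208, minus strand): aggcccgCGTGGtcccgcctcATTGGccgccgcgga

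HSPA5, XBP1 and PDIA6 hold the motif in the sense orientation close to the start site, at -66 to -48, -52 to -34 and -86 to -68 bases. HSP90B1 holds 1 copy in each orientation. In CALR, CRELD2 and ERO1B the motif reads in reverse, and in CALR and ERO1B it lies near the far end of the window, at -225 to -207 and -243 to -225. The CANX match is 1 place in the genome that falls in 3 windows, because RefSeq gives CANX several start sites.

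A related form, ERSE-II, was searched as ATTGG, then 1 base of any kind, then CCACG. It was found in HERPUD1, HYOU1 and SDF2L1, which is 3 of 33 members (9.09%) against 19 of 27305 genes (0.0696%). These stretches are shown because none of these 3 genes holds the first form, and the capitals mark the motif and, in HYOU1, also the bases TGA of an overlapping TGACGTG.

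HERPUD1 (chr16:56932015-56932045, plus strand): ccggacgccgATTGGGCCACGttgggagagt
SDF2L1 (chr22:21642104-21642134, plus strand): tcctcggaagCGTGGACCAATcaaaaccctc
HYOU1 (chr11:119057264-119057403, minus strand): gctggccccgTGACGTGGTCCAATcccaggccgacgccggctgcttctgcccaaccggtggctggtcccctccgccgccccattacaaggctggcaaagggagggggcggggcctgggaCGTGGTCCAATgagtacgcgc

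In HYOU1 there are 2 copies, and the copy farther from the start shares bases with TGACGTG, the core of the UPR element bound by XBP1. TGACGTG on either strand was also found in SEC61A1 and SSR3, so in 3 of 33 members (9.09%) against 2.4% of genes. The 5 bases CCACG alone were found in 25 of 33 members (75.8%) against 42.1% of genes. A heat shock element or an amino acid response element, searched in the forms with GAA and TTC blocks and with TGATG and AAT, was found in 0 of 33 members and in 0.608% and 1.22% of genes. A match describes letters in a window and not binding, and a window without a match says nothing about the factor.

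Under FSS most ER genes that changed in ONS76 rose, while in DAOY more fell than rose. In ONS76 19 of 36 members rose and 2 fell (edgeR's quasi-likelihood test, Benjamini-Hochberg adjusted p under 0.05 over all genes), while 14.3% of all tested genes rose and 14.1% fell. The 19 are 52.8% of the members. Changes over the list were small: the median log2 fold change of the 36 members was 0.161 against 0 for all genes. The largest changes among the 36 were 0.45 in MANF and -0.45 in EDEM1. In DAOY 7 members rose (19.4%) and 11 fell (30.6%), while 19.5% of all tested genes rose and 20.2% fell, so the share that rose was near that of all genes. The median of the members in DAOY was -0.0523 against 0.00212 for all genes.

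The response of a member was more often lower in DAOY than in ONS76. In the test of the difference itself, DAOY response minus ONS76 response, 17 of 36 members were lower (47.2%) and 2 were higher (5.56%), where 10.9% of all tested genes were lower and 8.55% higher. The median difference was -0.183 against -0.00128. Counted across both lines, 6 members rose in both (MANF, CALR, DNAJC3, DNAJB9, EDEM2 and EDEM3) where 6.98% of all genes did, and 2 fell in both (EDEM1 and SSR3) where 8.07% did. PDIA4 and ERN1 moved in opposite directions, as did 2.52% of all genes. The other members were called in 1 line alone or in neither, and being called in 1 line alone is no test of a difference. Across the 36 genes the responses of both lines had a Pearson r of 0.494 and a Spearman rho of 0.424, given as a description since genes of 1 library are not independent.

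Static ONS76 libraries 1 and 2 carry weight in these counts. Without them, 12 members rose and 1 fell in ONS76, and the difference was lower in 11 members and higher in 1. That fit, chosen after seeing the data, leaves 1 static ONS76 library, which is assumed to vary like the others, and it also takes the risen genes of the whole table from 2808 to 1598. The 13 members called in ONS76 in that fit were all among the 21 called with every library.

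**Figure D1:**
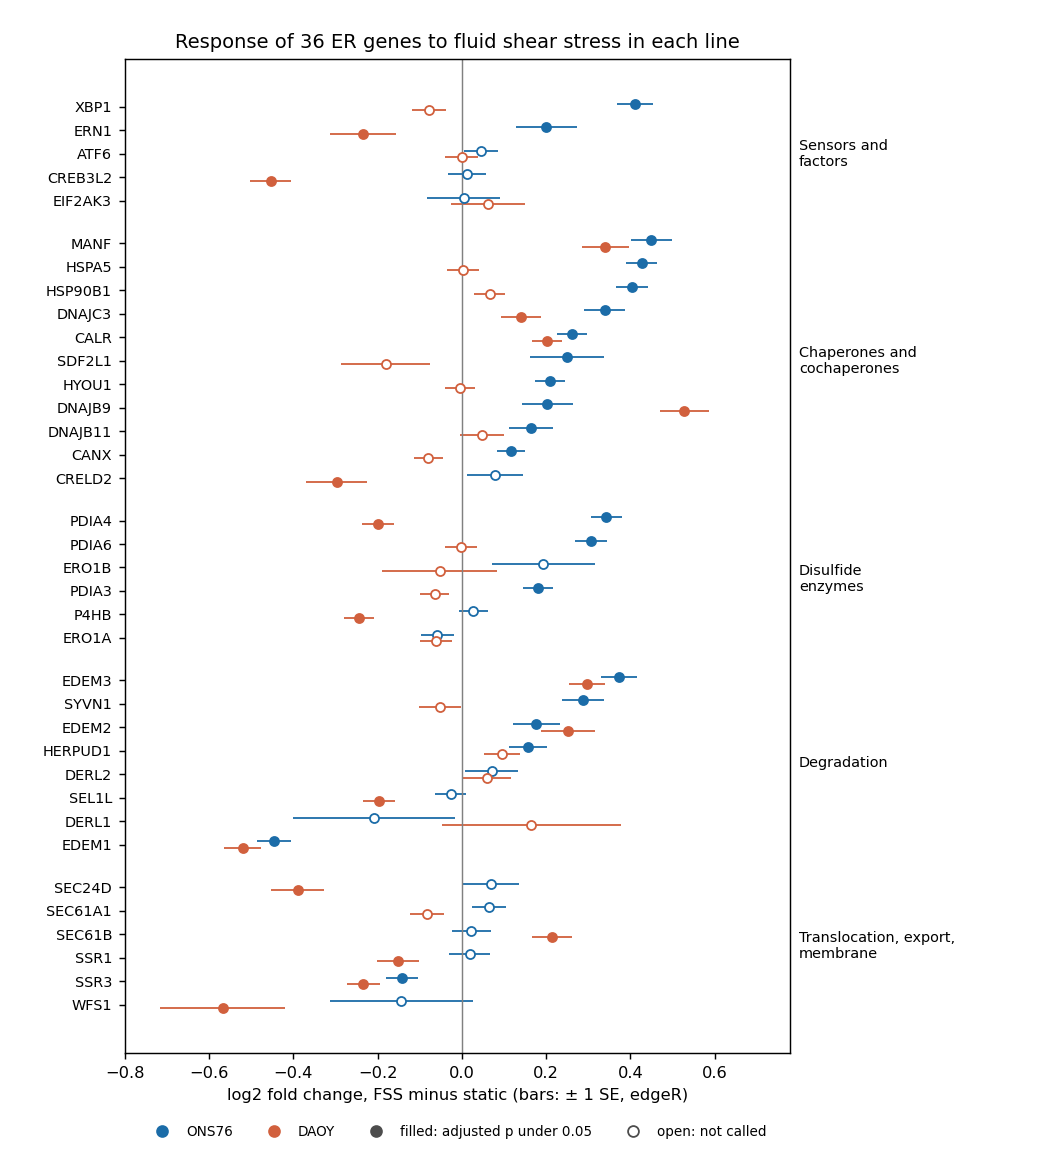
Log2 fold change of FSS over static in ONS76 (blue) and DAOY (orange) for each of the 36 genes, with bars of 1 standard error from edgeR and filled points where adjusted p is under 0.05. Most chaperones lie right of 0 in ONS76, and PDIA4 and ERN1 lie on opposite sides of 0.

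Among the 5 sensors and transcription factors, XBP1 and ERN1 rose in ONS76 (40%, all genes 14.3%). In DAOY 0 rose (all genes 19.5%) and 2 fell (40%, all genes 20.2%). XBP1 (ENSG00000100219, chromosome 22, 28794555 to 28800597 in GRCh38) stood at 71.7, 71.7 and 74.4 CPM in static ONS76 and at 93.9, 99.9 and 95.7 CPM under FSS. In DAOY it stood at 158, 149 and 146 CPM when static and at 136.5, 146 and 147 CPM under FSS. All FSS libraries of ONS76 lay above all its static ones, whereas the DAOY groups overlapped, and every DAOY library lay above every ONS76 library. The log2 fold change was 0.41 (SE 0.042, adjusted p = 9e-11) in ONS76 and -0.079 (SE 0.040, adjusted p = 0.118) in DAOY. The difference between the lines was -0.49 (SE 0.058, adjusted p = 1.03e-08).

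ERN1, which encodes the sensor IRE1, was at 26.4, 24.3 and 27.4 CPM in static ONS76 and at 29.8, 31.1 and 28.9 CPM under FSS. In DAOY it was at 13.0, 15.8 and 14.5 CPM when static and at 12.8, 11.8 and 12.2 CPM under FSS. The groups did not overlap in either line, higher under FSS in ONS76 and lower in DAOY, but the gaps were narrow. ERN1 rose by 0.20 (SE 0.072, adjusted p = 0.0313) in ONS76 and fell by 0.23 in DAOY (SE 0.079, adjusted p = 0.0152). The difference was -0.44 (SE 0.11, adjusted p = 0.00211). Both single-line calls rest on a few libraries: the ONS76 call was lost without ONS76 FSS replicate 1 (adjusted p = 0.055) or 2 (0.133) or static replicate 1 (0.0522) or 2 (0.165). The DAOY call was lost without DAOY FSS replicate 2 (0.0515) or static replicate 2 (0.135). With limma on TPM neither was called (0.0726 and 0.0907 in ONS76, 0.0571 and 0.0681 in DAOY), and the difference was lost without static ONS76 libraries 1 and 2 together (0.0535).

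The sensors ATF6 and EIF2AK3 were not called in either line. ATF6, the sensor that is cut to release a transcription factor, was at 81.4, 82.6 and 84.4 CPM in static ONS76 and at 85.7, 85.4 and 85.3 CPM under FSS. Static DAOY had 89.0, 88.9 and 90.3 CPM of ATF6, and DAOY under FSS had 89.2, 89.9 and 89.0 CPM. The ONS76 groups were separated by a narrow gap and the DAOY groups overlapped. The log2 fold change of ATF6 was 0.046 (SE 0.040, adjusted p = 0.434) and 7.9e-05 (SE 0.039, adjusted p = 1).

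EIF2AK3 encodes PERK, the sensor that slows translation. It was at 15.2, 16.2 and 15.6 CPM in static ONS76 and spread from 13.9 through 15.4 to 17.7 CPM under FSS. In DAOY it was at 13.4, 12.3 and 12.9 CPM when static and at 13.4, 12.8 and 14.04 CPM under FSS. Both pairs of groups overlapped, and the fold changes were 0.0048 (SE 0.087) in ONS76 and 0.062 (SE 0.087) in DAOY. Antisense transcripts cover 14.4% of the exon bases of EIF2AK3, and without knowing the strand setting of the counting their reads cannot be told apart.

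CREB3L2, a membrane-bound transcription factor of the OASIS family that is cut like ATF6, fell in DAOY. It was at 69.5, 69.2 and 70.2 CPM in static ONS76 and at 71.4, 70.7 and 68.6 CPM under FSS. In DAOY it went from 43.2, 43.5 and 42.2 CPM when static to 30.8, 30.3 and 33.0 CPM under FSS. The ONS76 groups overlapped and the DAOY groups were far apart. The fold change was 0.012 (SE 0.046) in ONS76 and -0.45 (SE 0.049, adjusted p = 1.48e-10) in DAOY, with a difference of -0.47 (SE 0.067, adjusted p = 6.73e-07).

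A list of other sensors and OASIS factors more often rose in ONS76 and fell in DAOY. It also counts the proteases MBTPS1 and MBTPS2 and the adaptor TRAF2. Of its 8 tested genes 5 rose (62.5%, all genes 14.3%) and 0 fell (all genes 14.1%) in ONS76. In DAOY 1 rose (12.5%, all genes 19.5%) and 4 fell (50%, all genes 20.2%). The response was lower in DAOY for 4 (50%, all genes 10.9%) and higher for 0 (all genes 8.55%). ATF6B, the paralogue of ATF6, rose by 0.24 in ONS76 (SE 0.048) from 55.1, 52.8 and 57.2 to 65.7, 64.6 and 65.0 CPM. In DAOY ATF6B changed by -0.59 (SE 0.051), from 42.6, 44.5 and 45.0 to 30.1, 28.3 and 29.2 CPM. CREB3L1, an OASIS factor of secretory cells, changed by 0.92 (SE 0.15) in ONS76 and by -0.51 (SE 0.096) in DAOY. Their differences between lines were -0.84 (SE 0.070, adjusted p = 9.75e-13) and -1.43 (SE 0.18, adjusted p = 3.37e-08). ERN2, the epithelial form of IRE1, was at 0 in all 3 static ONS76 libraries and at 0.0981 to 0.158 CPM under FSS. In DAOY ERN2 went from 0.245 to 0.354 CPM when static to 1.12 to 1.52 CPM under FSS.

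**Figure D2:**
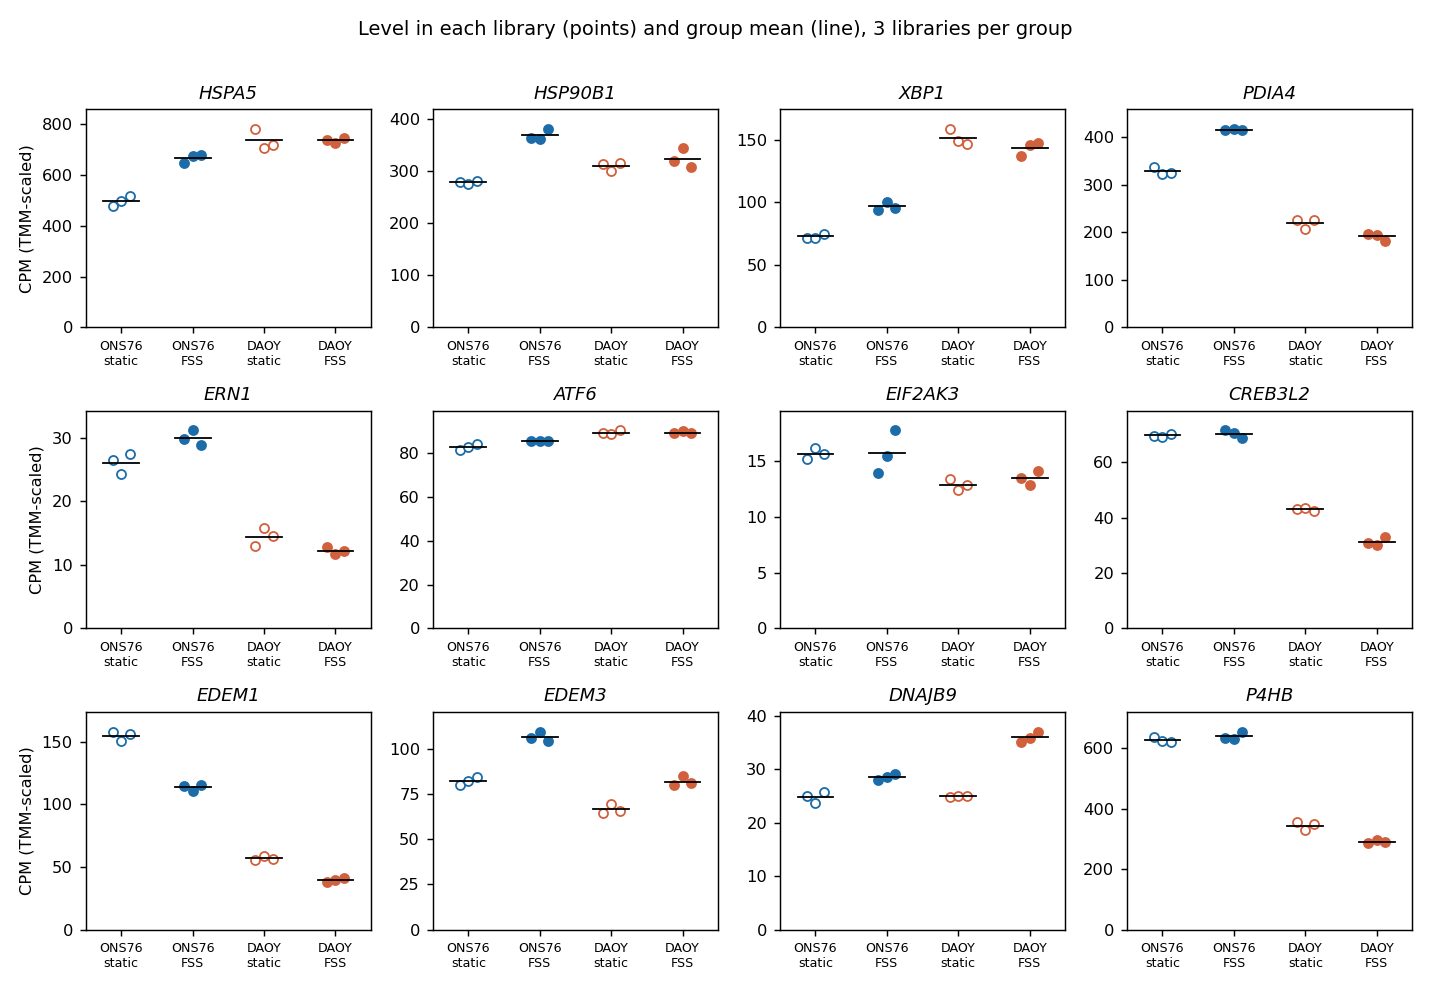
CPM in each of the 12 libraries (points) and group means (lines) for 12 genes, static groups as open points and FSS groups as filled points, with every vertical axis starting at 0. HSPA5, HSP90B1 and XBP1 step up in ONS76 and stay level in DAOY, EDEM1 steps down in both lines, and DNAJB9 steps up most in DAOY.

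Chaperones and cochaperones gave the ONS76 rise most of its members: 10 of 11 rose (90.9%, all genes 14.3%) and 0 fell (all genes 14.1%). In DAOY 4 rose (36.4%, all genes 19.5%) and 1 fell (9.09%, all genes 20.2%). The response was lower in DAOY for 7 of the 11 (63.6%, all genes 10.9%) and higher for 1 (9.09%, all genes 8.55%). HSPA5 encodes BiP, the main Hsp70 chaperone of the ER lumen, which also holds the sensors inactive. HSPA5 (ENSG00000044574, chromosome 9, 125234853 to 125241330) stood at 477, 497 and 517 CPM in static ONS76 and at 649.5, 676 and 679 CPM under FSS. In DAOY it stood at 781, 708 and 720.3 CPM when static and at 739.7, 726 and 748 CPM under FSS. In ONS76 the FSS libraries all lay above the static ones, and in DAOY the groups overlapped at a level above that of ONS76 under FSS. The log2 fold change was 0.43 (SE 0.038, adjusted p = 1.26e-12), or 1.34-fold, in ONS76 and 0.0024 (SE 0.037) in DAOY. The difference was -0.42 (SE 0.053, adjusted p = 3.09e-08).

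HSP90B1 encodes GRP94, the Hsp90 of the ER. It stood at 279.5, 276 and 281 CPM in static ONS76 and at 364, 362 and 380.5 CPM under FSS. In DAOY it stood at 313, 300.2 and 315 CPM when static and at 319, 344 and 309 CPM under FSS. As for HSPA5, the groups were apart in ONS76 and overlapped in DAOY. The log2 fold change of HSP90B1 was 0.40 (SE 0.038, adjusted p = 6.15e-12) and 0.066 (SE 0.037, adjusted p = 0.163), with a difference of -0.34 (SE 0.053, adjusted p = 3.57e-06). With upper-quartile scaling HSP90B1 was called higher in DAOY, at 0.0954 (adjusted p = 0.0295).

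CALR and MANF rose in both lines. CALR encodes calreticulin, a calcium-binding chaperone that holds sugar-bearing proteins, and was at 1034, 995 and 1046 CPM in static ONS76 against 1199, 1222 and 1265 CPM under FSS. DAOY had 544.5, 512 and 545 CPM of CALR when static and at 622, 606 and 616 CPM under FSS. Neither pair of groups overlapped. CALR rose by 0.26 (SE 0.035) and 0.20 (SE 0.036), and the difference of -0.058 (SE 0.050, adjusted p = 0.48) was not called.

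MANF encodes an ER-resident protein that is secreted under stress and has neurotrophic activity. It was at 52.1, 54.0 and 54.6 CPM in static ONS76 and at 71.2, 73.1 and 75.0 CPM under FSS. In DAOY MANF was at 21.9, 19.98 and 21.3 CPM when static and at 26.9, 25.9 and 27.2 CPM under FSS. All FSS libraries lay above all static ones of the same line. The rise of 0.45 (SE 0.050) in ONS76 was the largest of the 36 members there, the rise in DAOY was 0.34 (SE 0.055), and the difference of -0.11 (SE 0.074) was not called.

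DNAJB9 was the reverse case, a member with the larger rise in DAOY. It encodes ERdj4, a cochaperone of BiP that restrains IRE1. It was at 25.02, 23.7 and 25.7 CPM in static ONS76 and at 28.1, 28.5 and 29.1 CPM under FSS. In DAOY it was at 24.87, 24.99 and 24.99 CPM when static and at 35.1, 35.9 and 37.0 CPM under FSS. On this scale the static lines were level, and under FSS every DAOY library lay above every ONS76 library. With upper-quartile scaling static ONS76 was lower than static DAOY by a log2 difference of -0.229 (adjusted p = 0.000555), and on log2(TPM + 1) by -0.411 (limma, adjusted p = 2.64e-07). DNAJB9 rose by 0.20 (SE 0.060, adjusted p = 0.00845) and 0.53 (SE 0.058, adjusted p = 2.87e-10), with a difference of 0.33 (SE 0.084, adjusted p = 0.00344). The ONS76 call was lost without static ONS76 replicate 2 (adjusted p = 0.0531).

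Of the remaining chaperone genes, DNAJC3, a BiP cochaperone, rose by 0.34 (SE 0.048) in ONS76 and by 0.14 (SE 0.047) in DAOY. HYOU1, a large Hsp70 relative that exchanges nucleotide on BiP, rose by 0.21 (SE 0.036) in ONS76 and stood at -0.0046 (SE 0.035) in DAOY. The membrane-bound lectin chaperone calnexin (CANX) rose by 0.12 (SE 0.034) in ONS76 and was at -0.079 in DAOY (adjusted p = 0.0557). SDF2L1 and DNAJB11, which act in a complex with BiP, rose by 0.25 (SE 0.089) and 0.16 (SE 0.052) in ONS76 and were not called in DAOY. Exons of AC068631.2 on the same strand cover 7.87% of the exon bases of DNAJB11. CRELD2, a disulfide-rich ER protein, was the only chaperone-group member not called in ONS76, at 0.079 (SE 0.067), and it fell by 0.30 in DAOY (SE 0.073).

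Several of these calls lie near the threshold. In ONS76 the SDF2L1 call was lost without FSS replicate 1 (adjusted p = 0.109) or 3 (0.0885) or static replicate 2 (0.151), and the DNAJB11 call without FSS replicate 1 (0.0659). In DAOY the DNAJC3 call was lost without FSS replicate 2 (0.0881) or static replicate 3 (0.124), while CANX was called as lower under 10 of 22 alternatives. These were the fits without FSS replicate 1 (0.0096), ONS76 FSS replicate 1 (0.0446) or 3 (0.049) or ONS76 static replicate 2 (0.0463), DESeq2 (0.00516), RLE scaling (0.0383), no filter (0.0427), DAOY alone (0.0392) and limma on TPM (0.00737 and 0.00781).

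Of the 6 disulfide enzymes 3 rose and 0 fell in ONS76 (all genes 14.3% and 14.1%), and 0 rose and 2 fell in DAOY (all genes 19.5% and 20.2%). The response was lower in DAOY for 4 (66.7%, all genes 10.9%) and higher for 0 (all genes 8.55%). PDIA4 encodes ERp72, a protein disulfide isomerase. It stood at 337, 323 and 324 CPM in static ONS76 and at 416, 417 and 415 CPM under FSS. In DAOY it stood at 225, 208 and 227 CPM when static and at 197, 195 and 182 CPM under FSS. FSS libraries lay above static ones in ONS76 and below them in DAOY, with no overlap in either line. The fold changes were 0.34 (SE 0.038, adjusted p = 4.61e-10) and -0.20 (SE 0.038, adjusted p = 2.82e-05). Their difference of -0.54 (SE 0.053, adjusted p = 8.62e-11) was the largest called among the members.

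P4HB, the founding protein disulfide isomerase and also a subunit of collagen prolyl hydroxylase, stood at 637, 622 and 621 CPM in static ONS76 and at 633, 629 and 654 CPM under FSS. In DAOY it stood at 355, 328.5 and 348 CPM when static and at 286, 296 and 289.5 CPM under FSS. It overlapped between groups in ONS76 and was lower in every FSS library of DAOY. The fold changes were 0.028 (SE 0.035) and -0.24 (SE 0.036, adjusted p = 2.21e-07), with a difference of -0.27 (SE 0.050, adjusted p = 5.49e-05).

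PDIA6, an isomerase that acts with BiP, rose by 0.31 (SE 0.038) in ONS76 and stood at -0.0012 (SE 0.038) in DAOY. PDIA3, the isomerase that works with calnexin and calreticulin, rose by 0.18 (SE 0.035) in ONS76 and was at -0.065 (SE 0.035) in DAOY, where it was called without FSS replicate 2 (adjusted p = 0.0499). Exons of other genes on the opposite strand cover 25.2% of the exon bases of PDIA6 (ATP6V1C2) and 14.8% of those of PDIA3 (ELL3). The oxidases that recharge these enzymes did not pass the test in either line: ERO1A was at -0.058 (SE 0.040) and -0.061 (SE 0.038), and ERO1B at 0.19 (SE 0.12) and -0.053 (SE 0.14). ERO1B is rare, at 3.30 to 8.66 CPM over the libraries, and its error is accordingly wide.

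Within the degradation machinery the 3 EDEM genes, whose products trim mannose from misfolded glycoproteins, did not move together. EDEM1 (ENSG00000134109, chromosome 3, 5187646 to 5219957) fell in both lines. It stood at 158, 151 and 156 CPM in static ONS76 and at 115, 111 and 115.5 CPM under FSS. In DAOY it stood at 55.9, 58.6 and 56.6 CPM when static and at 38.1, 40.0 and 41.2 CPM under FSS. The FSS libraries lay below the static ones in both lines with wide gaps. The fold changes were -0.45 (SE 0.040, adjusted p = 2.7e-12) and -0.52 (SE 0.044, adjusted p = 1.21e-13), and their difference of -0.075 (SE 0.059) was not called. Antisense transcripts cover 9.66% of its exon bases, as they do 9.95% of those of CALR and 9.98% of those of P4HB. The promoter window of EDEM1 held none of the 3 UPR motifs searched.

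EDEM3 rose in both lines. It was at 79.8, 82.0 and 84.6 CPM in static ONS76 and at 106, 109 and 104 CPM under FSS. In DAOY EDEM3 was at 64.6, 69.6 and 65.6 CPM when static and at 79.7, 84.8 and 80.9 CPM under FSS. The groups did not overlap in either line, and the fold changes were 0.37 (SE 0.043) and 0.30 (SE 0.043).

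EDEM2, which makes the first mannose cut, was at 47.5, 46.5 and 49.3 CPM in static ONS76 and at 54.1, 53.5 and 54.3 CPM under FSS. In DAOY it was at 16.1, 15.6 and 15.1 CPM when static and at 18.4, 20.1 and 17.1 CPM under FSS. It was higher under FSS in all libraries of both lines, by 0.18 (SE 0.056) and 0.25 (SE 0.064), although the ONS76 call was lost without static replicate 2 (adjusted p = 0.061).

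Over the 8 degradation genes 4 rose and 1 fell in ONS76 (50% and 12.5%, against 14.3% and 14.1% of all genes). In DAOY 2 rose and 2 fell (25% each, against 19.5% and 20.2%), which with so few genes is near the shares of all genes. The response was lower in DAOY for 2 (25%, all genes 10.9%) and higher for 0 (all genes 8.55%). SYVN1, the ubiquitin ligase HRD1 at the centre of the machinery, rose by 0.29 (SE 0.051) in ONS76 and was at -0.052 (SE 0.049) in DAOY, with a difference of -0.34 (SE 0.071). Exons of FAU on the same strand cover 7.24% of the exon bases of SYVN1, and reads there cannot be told apart by strand. SEL1L, the adaptor that holds HRD1 in place, was at -0.026 (SE 0.037) in ONS76 and fell by 0.20 in DAOY (SE 0.037). HERPUD1, a scaffold of the same complex, rose by 0.16 (SE 0.045) in ONS76, a call lost without static replicate 1 (adjusted p = 0.0599). In DAOY HERPUD1 was at 0.095 (adjusted p = 0.0734). It was called there without static DAOY replicate 1 (0.0467), with upper-quartile scaling (0.0162) and with a filter of 1 CPM in 3 libraries (0.0441).

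The derlins, membrane proteins of the export channel, were not called. DERL2 was at 0.071 (SE 0.062) and 0.059 (SE 0.058). DERL1 had 63 to 173 counts per library and SEs of 0.19 and 0.21, so a change of the size seen in most other members was not detectable for it at this depth.

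Of the 6 translocation, export and membrane genes 0 rose (all genes 14.3%) and 1 fell (16.7%, all genes 14.1%) in ONS76. In DAOY 1 rose (16.7%, all genes 19.5%) and 4 fell (66.7%, all genes 20.2%). With so few genes, the ONS76 counts and the DAOY rise were near the shares of all genes. SEC24D, a cargo adaptor of the COPII coats that carry proteins out of the ER, was at 0.069 (SE 0.068) in ONS76 and fell by 0.39 in DAOY (SE 0.063), with a difference of -0.46 (SE 0.093, adjusted p = 0.000201). WFS1, an ER membrane protein that is lost in Wolfram syndrome, was at -0.14 (SE 0.17) in ONS76 and fell by 0.57 in DAOY (SE 0.15), at 2.33 to 6.29 CPM over the libraries. The difference for WFS1 of -0.42 (SE 0.22) was not called.

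SSR3, a subunit of the translocon-associated TRAP complex, fell by 0.14 (SE 0.038) in ONS76 and by 0.23 in DAOY (SE 0.039), and the ONS76 call was lost without FSS replicate 1 (adjusted p = 0.0525). SSR1, another TRAP subunit, was at 0.019 (SE 0.048) in ONS76 and fell by 0.15 in DAOY (SE 0.051), a call lost without static DAOY replicate 1 (0.0656) or 2 (0.0583). SEC61B, a small subunit of the translocation channel, was at 0.022 (SE 0.046) in ONS76 and rose by 0.21 in DAOY (SE 0.048). Its difference of 0.19 (SE 0.066, adjusted p = 0.0351) was lost without any 1 of 7 libraries (adjusted p from 0.0577 to 0.169). The channel itself, SEC61A1, was at 0.064 (SE 0.039) and -0.083 (SE 0.040), and its difference of -0.15 (SE 0.056, adjusted p = 0.0579) was called without static ONS76 replicate 1 (0.0484) or DAOY FSS replicate 2 (0.0399), with RLE scaling (0.0394), with DESeq2 (0.0174) and with limma on TPM (0.0264 and 0.0299).

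Members with an ERSE, printed above, mostly rose in ONS76 and were mostly not called in DAOY. In ONS76 6 of the 8 rose and 0 fell, with a median of 0.283. Among the 25 members with a window but no ERSE, 12 rose and 2 fell, with a median of 0.0708. These 25 include the 3 members with ERSE-II. In DAOY 1 of the 8 rose (CALR) and 1 fell (CRELD2), with a median of -0.0269, against 6 and 9 of the 25 with a median of -0.0519. The response was lower in DAOY for 6 of the 8 and for 9 of the 25. All 3 members with ERSE-II rose in ONS76 and none was called in DAOY. These counts describe the members and carry no test. Of all tested genes 14.3% rose and 14.1% fell in ONS76, and 19.5% rose and 20.2% fell in DAOY. The response was lower in DAOY for 10.9% of them.

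**Figure D3:**
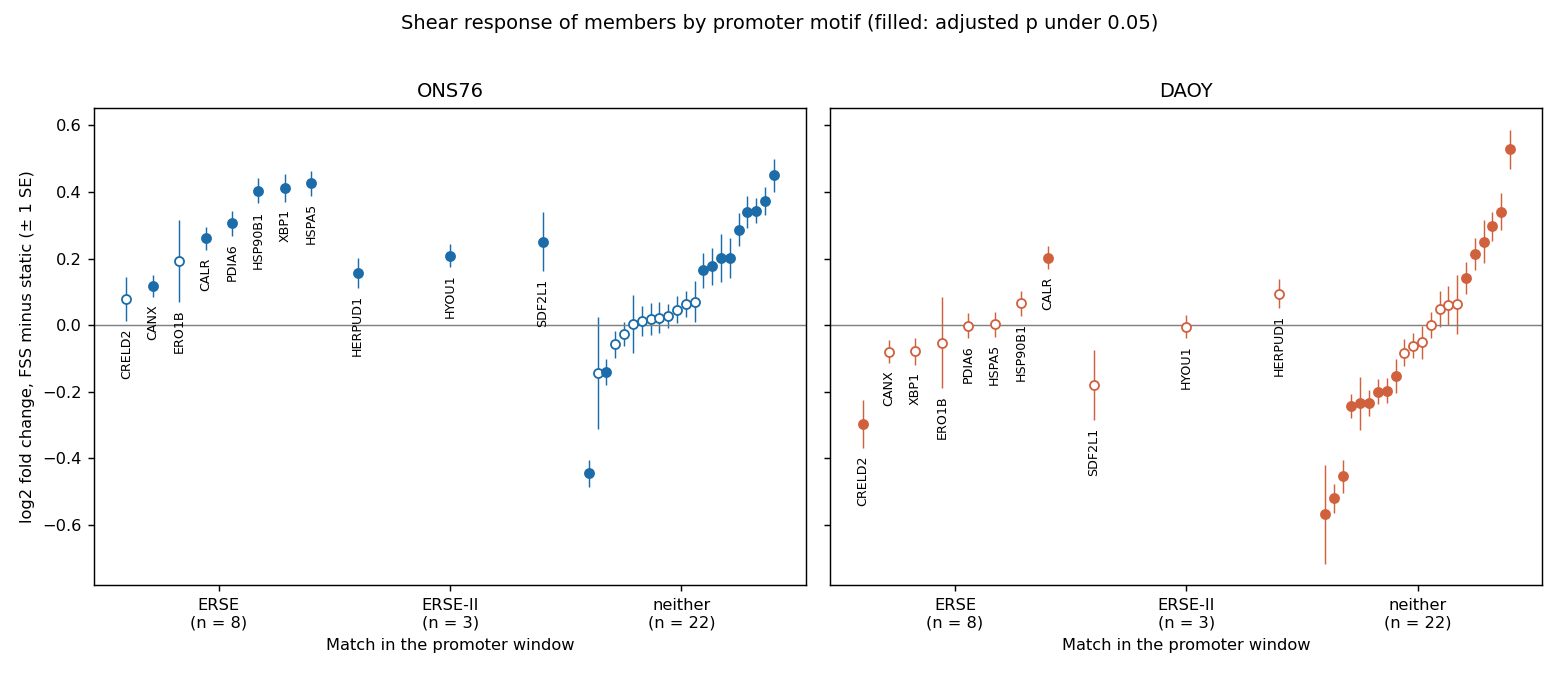
Log2 fold change of FSS over static, with bars of 1 standard error, for members with an ERSE, with ERSE-II and with neither in their promoter windows, sorted within each class (left ONS76, right DAOY, filled where adjusted p is under 0.05). The ERSE genes lie above 0 in ONS76, and in DAOY all but CALR and CRELD2 are open points near 0.

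Between the static lines nearly all members differed. Of 36 members 20 were higher in ONS76 and 14 higher in DAOY, where 37.9% of all tested genes were higher in ONS76 and 43.2% higher in DAOY. The median log2 difference, ONS76 minus DAOY, was 0.291 against -0.101 for all genes, so another scaling of the libraries shifts all values. The split was 16 and 16 with upper-quartile scaling and 15 and 18 with TPM. The sign of EDEM3, EIF2AK3, SEC61A1 and SSR3, at 0.28 to 0.30 here, turned with TPM.

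EDEM2 at 1.61 (SE 0.061), SDF2L1 at 1.45 (SE 0.097), EDEM1 at 1.44 (SE 0.042), MANF at 1.35 (SE 0.054) and DERL1 at 1.11 (SE 0.20) had the largest differences toward ONS76. XBP1 at -1.06 (SE 0.042), WFS1 at -0.99 (SE 0.16), SEC24D at -0.81 (SE 0.065), PDIA3 at -0.71 (SE 0.035) and HERPUD1 at -0.61 (SE 0.044) had the largest toward DAOY. CALR was higher in ONS76 by 0.94 (SE 0.036) and P4HB by 0.87 (SE 0.036), with no overlap between lines in the libraries given above. BiP went the other way: static HSPA5 was lower in ONS76, at -0.57 (SE 0.038, adjusted p = 1.64e-18). DNAJB9 at -0.0079 (SE 0.061) and DNAJC3 at -0.064 (SE 0.048) were the 2 members not called, although DNAJC3 was called lower in ONS76 under 6 of 21 alternatives (DESeq2, adjusted p = 0.0159, among them) and DNAJB9 under 3.

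Per length, in TPM (the transcripts-per-million value), the members spanned about 3 orders of magnitude in each group. CALR was the highest in all 4 groups, at 1412 ± 22.9 TPM in static ONS76, 1722 ± 14.8 under FSS, 980.4 ± 31.7 in static DAOY and 1127 ± 0.51 under FSS (mean and SD, n = 3). It made up 30.0%, 31.1%, 19.4% and 22.1% of the summed TPM of the members. CANX came next in all 4 groups, at 634 ± 4.26, 700.2 ± 9.41, 520 ± 4.41 and 491 ± 6.71 TPM.

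Below these the order depended on the line. In static ONS76 SEC61B (315 ± 7.04 TPM) and PDIA4 (294 ± 3.48) followed, then HSPA5 (241 ± 11.9), PDIA3 (213 ± 3.08), and PDIA6 (203 ± 7.47), of which the last 2 did not differ beyond their SDs. In static DAOY HSPA5 (476 ± 20.1) and PDIA3 (466 ± 6.89) followed and did not differ beyond their SDs, then PDIA6 (333 ± 13.0), SEC61B (264 ± 8.92) and PDIA4 (263 ± 11.7), where SEC61B and PDIA4 were again within their SDs. Of the sensors ATF6 lay in the middle of the order, at 29.02 ± 0.818 TPM in static ONS76 and 41.8 ± 0.71 in static DAOY, while the other two were low: ERN1 had 7.55 ± 0.378 TPM in static ONS76 and 5.58 ± 0.589 in static DAOY, and EIF2AK3 had 8.66 ± 0.431 and 9.51 ± 0.304. DERL1 was the lowest in all 4 groups, from 1.06 ± 0.162 to 1.72 ± 0.5 TPM. Its few counts may reflect how reads were assigned to genes, which was not tested, so its level and its difference between static lines are uncertain.

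Summed over the members, static ONS76 held 4711 ± 54.0 TPM and ONS76 under FSS 5541 ± 54.9, with 4670 to 4772 in the static libraries and 5493 to 5601 under FSS. Static DAOY held 5041 ± 71.9 TPM and DAOY under FSS 5097 ± 73.5, with overlapping libraries. The sum is given with no test.

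**Figure D4:**
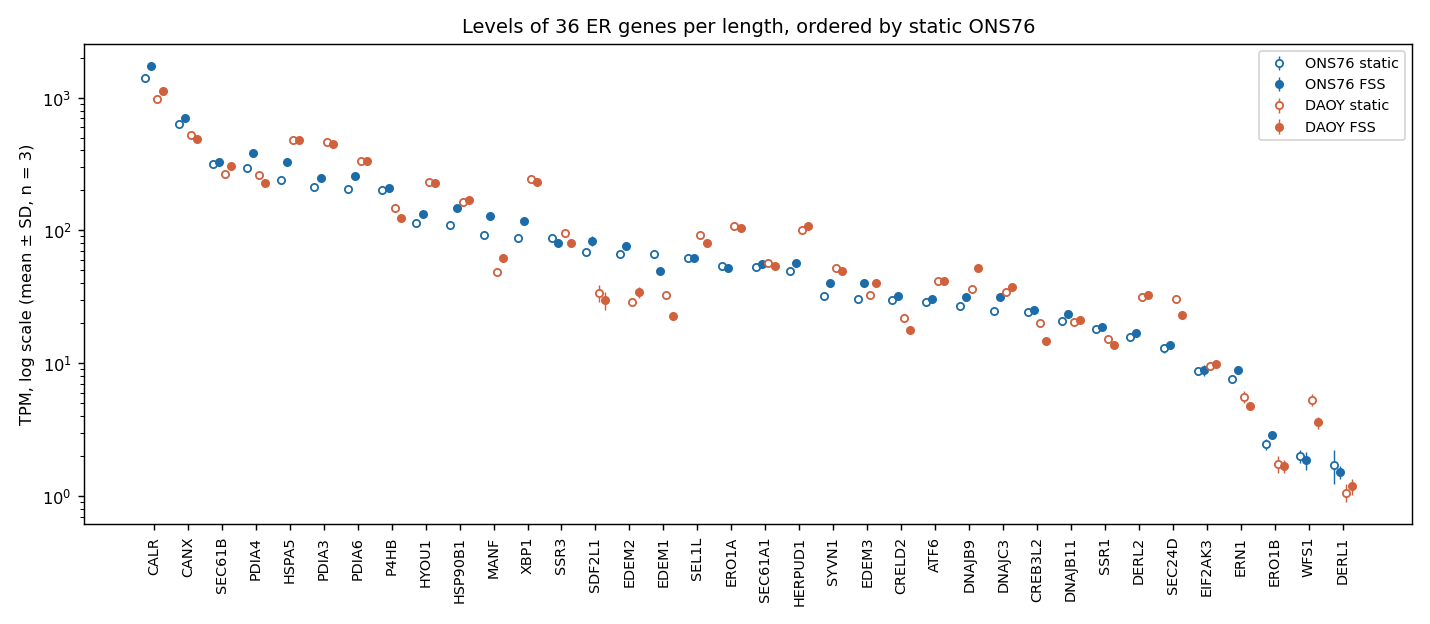
TPM of each member on a log scale (mean and SD of 3 libraries) in the 4 groups, ordered by static ONS76, with open points for static and filled points for FSS. CALR and CANX lead in all groups and DERL1 is lowest, while XBP1, HSPA5 and HERPUD1 are higher in DAOY and EDEM1, EDEM2 and MANF in ONS76.

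Other gene lists of the secretory pathway place these changes, beside the shares of all genes that rose and fell in ONS76 (14.3% and 14.1%), rose and fell in DAOY (19.5% and 20.2%) and had a lower or higher response in DAOY (10.9% and 8.55%). COPII and ER exit genes rose or were not called in ONS76 and mostly fell, where called, in DAOY: 8 of 22 rose and 0 fell in ONS76, 3 rose and 8 fell in DAOY, and the response was lower in DAOY for 10 and higher for 0. LMAN1, a cargo receptor of ER exit, rose by 0.15 (SE 0.037) in ONS76 and fell by 0.36 in DAOY (SE 0.038). SAR1B and SEC23B, parts of the coat, rose in both lines by 0.15 to 0.22.

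Other lumenal folding genes moved in both directions: 10 of 33 rose and 7 fell in ONS76, 8 rose and 14 fell in DAOY, and the response was lower in DAOY for 10 and higher for 2. PDIA5, another disulfide isomerase, changed by -0.72 (SE 0.076) in ONS76 and by -1.02 (SE 0.083) in DAOY, FKBP9 by -0.36 (SE 0.048) and -0.34 (SE 0.048), and the disulfide reductase DNAJC10 by -0.20 (SE 0.043) and -0.26 (SE 0.044). Other genes of ER-associated degradation fell more often than they rose: 1 of 23 rose and 7 fell in ONS76, 6 rose and 12 fell in DAOY, and the response was lower in DAOY for 10 and higher for 5. NPLOC4, which helps to pull proteins from the membrane, changed by -0.19 (SE 0.038) and -0.44 (SE 0.038), the ubiquitin-conjugating UBE2J1 by -0.22 (SE 0.043) and -0.44 (SE 0.045), and the ligase RNF185 by -0.13 (SE 0.055, which was not called) and -0.51 (SE 0.056).

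The translocon and signal peptide list also counts subunits of the glycosylation complex, among them RPN1, RPN2, STT3A and STT3B. Of its 29 tested genes 9 rose and 3 fell in ONS76, and 8 rose and 8 fell in DAOY. The response was lower in DAOY for 8 and higher for 1. SRP72 of the signal recognition particle changed by -0.28 (SE 0.037) and -0.64 (SE 0.038), and SPCS1 of the signal peptidase by -0.30 (SE 0.045) and -0.32 (SE 0.045). MAGT1, an oxidoreductase of the glycosylation complex, changed by 0.15 (SE 0.042) and -0.19 (SE 0.043).

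Of 14 genes downstream of PERK and ATF4, the third branch of the UPR, 1 rose (7.14%, all genes 14.3%) and 3 fell (21.4%, all genes 14.1%) in ONS76. In DAOY 4 rose (28.6%, all genes 19.5%) and 2 fell (14.3%, all genes 20.2%). Most were not called, but neither were most of all tested genes. The medians were -0.0824 and 0.0613. DDIT3 and NUPR1 of this list were rare, at 0.16 to 0.592 and 0.083 to 1.3 CPM over the libraries. SLC7A11, the cystine carrier, changed by -0.34 (SE 0.066) and -0.74 (SE 0.061). CEBPB, a transcription factor, rose by 0.23 (SE 0.042) and 0.17 (SE 0.044), and PHGDH, the first enzyme of serine synthesis, was at -0.089 (SE 0.035, not called) and rose by 0.22 (SE 0.035) in DAOY.

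Most genes of the cytosolic heat shock list, which also counts a mitochondrial chaperone, rose in both lines. Of 18 tested 15 rose and 0 fell in ONS76, 13 rose and 1 fell in DAOY, and the response was higher in DAOY for 7 and lower for 2. Their medians were 0.51 and 0.54. HSPH1, a cytosolic cochaperone, rose by 0.98 (SE 0.037) and 1.32 (SE 0.038), and the Hsp70 genes HSPA1A and HSPA1B, which are near-identical and can exchange reads, rose by 0.92 to 1.27. Hypoxia-inducible genes, some of which encode ER proteins, went both ways: 4 of 15 rose and 5 fell in ONS76, and 6 rose and 3 fell in DAOY. PDK1, which restrains pyruvate oxidation, changed by -1.16 (SE 0.097) and -1.49 (SE 0.11), VEGFA rose by 0.48 (SE 0.042) and 0.53 (SE 0.042), and P4HA1, the partner of P4HB in collagen hydroxylation, rose by 0.44 (SE 0.048) and 0.50 (SE 0.049).

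**Figure D5:**
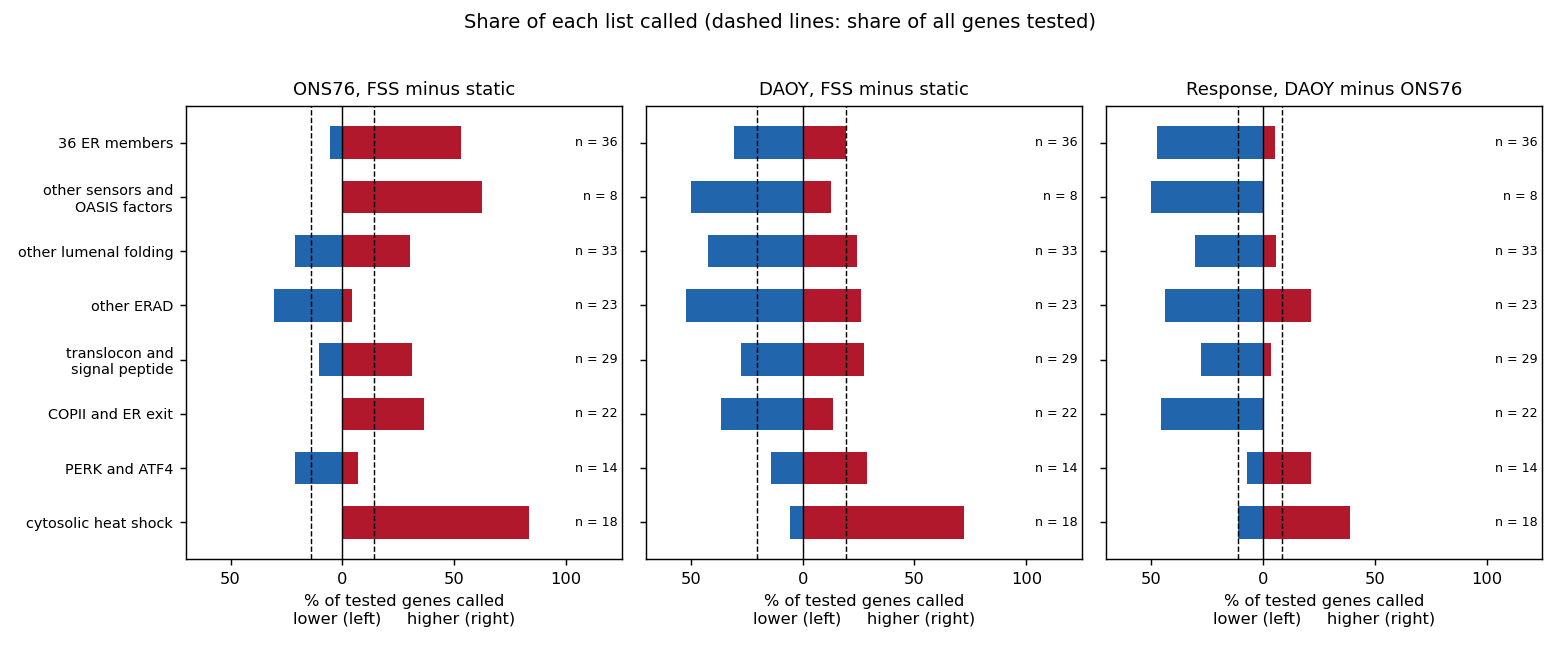
Share of tested genes of each list called higher (red, right) and lower (blue, left) under FSS in ONS76, in DAOY and in the difference of responses, with dashed lines at the shares of all genes tested. The 36 members and the COPII, translocon and other sensor and OASIS lists lie mostly to the right in ONS76 and to the left in the difference. Other lumenal folding genes lean the same way, with bars on both sides in ONS76. Heat shock genes lie mostly to the right in all 3 panels.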

How the data were processed

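Directional polyA libraries of total RNA from 12 cultures (2 lines, static or FSS, 3 each) were sequenced as paired reads, per the labels. HISAT2 2.2.1, featureCounts and GRCh38 are named, per the submitters' processing notes. Annotation, strand and overlap settings were not given in the sources used here, so reads of overlapping, antisense or near-identical genes are uncertain. The authors deposited raw counts and TPM values per gene. The deposited TPM follows from the count and a fixed gene length, so it adds no measurement.

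The test was edgeR 4.0.16 under R 4.3.3 on the counts (filterByExpr, TMM, robust quasi-likelihood fit, 1 mean per group over all 12 libraries, two-sided, Benjamini-Hochberg over 19631 genes). FSS was set against static within each line, the DAOY response against the ONS76 response, and the static lines against each other. SE is the absolute log2 fold change over the square root of F. CPM values are counts scaled by TMM library sizes, except for cell type markers, which are scaled by library totals. The test was checked on simulated data with known changes.

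The members and the 8 companion lists were chosen with earlier results of these data known. Values per library are given for 7 genes picked for their roles and for the 5 members with the smallest p in each contrast, and 3 genes are named per companion list by their ranks in both lines. Replicate numbers did not pair samples: correlations of same-numbered deviations from group means ran from -0.0993 to 0.0784. Chi-square per degree of freedom between replicates was 3.74 to 9.25, above counting noise. Alternatives tried were DESeq2 1.42.0, upper-quartile or RLE scaling, a block on replicate number, other filters, each line alone, limma 3.58.1 on log2(TPM + 1) and log2(TPM + 0.1), and leaving out each library. Coordinates are from GENCODE 29 (36 of 36 matched by identifier), which may not be the authors' annotation.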

Additional observations from a re-analysis of the deposited data

Results flagged for a closer look

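The FSS response of 19 members differed between the lines in edgeR's test of the difference (DAOY minus ONS76, log2). It was lower in DAOY for the chaperones and cochaperones HSPA5 (-0.424), HSP90B1 (-0.337), CANX (-0.196), HYOU1 (-0.214), SDF2L1 (-0.431), CRELD2 (-0.376) and DNAJC3 (-0.198). The isomerases PDIA3 (-0.246), PDIA4 (-0.543), PDIA6 (-0.307) and P4HB (-0.271) also had the lower response in DAOY. So did the sensor and transcription factor genes XBP1 (-0.49), ERN1 (-0.435) and CREB3L2 (-0.466), the degradation genes SYVN1 (-0.339) and SEL1L (-0.17) and the export gene SEC24D (-0.458). DNAJB9 (0.326) and SEC61B (0.191) had the higher response in DAOY. The DNAJC3 difference was lost without ONS76 FSS replicate 1 (adjusted p = 0.0521), ONS76 static replicate 2 (0.104), DAOY FSS replicate 1 (0.0605) or DAOY static replicate 1 (0.0696) or 2 (0.0764). The SDF2L1 difference was lost without ONS76 static replicate 2 (0.0625), DAOY FSS replicate 1 (0.0896) or DAOY static replicate 3 (0.115) and with limma on TPM (0.0557 and 0.0674). That of SEC61B was lost without any 1 of 7 libraries (0.0577 to 0.169) and with limma on TPM (0.0636 and 0.0728). Without static ONS76 libraries 1 and 2 together, the differences of CRELD2 (0.129), ERN1 (0.0535), HYOU1 (0.0546) and SEL1L (0.167) were lost as well. With 3 libraries a group, no library was tested as an outlier.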

How the results depend on the processing

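Of the members called in the report, 13 of 21 in ONS76 and 15 of 18 in DAOY were called under all 22 alternatives, and 12 of 19 differences and 27 of 34 static differences under all 21. Leaving out 1 library gave 15 to 19 members risen and 1 to 2 fallen in ONS76, 6 to 8 and 9 to 12 in DAOY, 1 to 2 higher and 15 to 18 lower responses in DAOY, and 20 to 20 and 14 to 14 between static lines. The fewest risen in ONS76 came without static replicate 2. Without static ONS76 libraries 1 and 2, chosen after seeing the data, the counts were 12 and 1 in ONS76 and 1 higher and 11 lower in the difference. On log2(TPM + 1) and log2(TPM + 0.1) 1 response was higher in DAOY, and the static difference turned sign for EDEM3 (-0.11 and -0.113), EIF2AK3 (-0.121 and -0.133), SEC61A1 (-0.114 and -0.116) and SSR3 (-0.131 and -0.133). The median static difference of all genes there was -0.33 and -0.496, against -0.101 with TMM. The replicate block, with numbers that did not pair samples, left 19 and 2 in ONS76, 7 and 11 in DAOY and 2 and 17 in the difference, and gave 19 and 13 between static lines, where ATF6 (adjusted p = 0.0697) and EIF2AK3 (0.271) were lost.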
